A study of Homo sapiens with 4 samples.

Results

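The genes described here are the chemokines that gut epithelium is known to make for neutrophils and for the mucosal lymphocytes and dendritic cells, namely CXCL1, CXCL2, CXCL3, CXCL5, CXCL6, CXCL8, CXCL16, CCL20 and CCL28. They were chosen by name, with earlier results of these data known, and each matched 1 row of the deposited table, giving 9 genes of 61544. The study exposed a pair of epithelial cell lines, HT29 and HCT116, to lipopolysaccharide (LPS), the outer membrane glycolipid of Gram-negative bacteria, as a culture model of intestinal inflammation. HT29 and HCT116 are established human colorectal cancer lines, and each gave 1 control library and 1 library from cells kept in LPS at 1 ug/mL for 24 h. All 4 cultures were grown in the same supplemented Advanced DMEM/F-12 medium, and as tumour lines they stand in for the epithelium without the leukocytes these chemokines act on. With 1 library per condition there was no replicate check of any difference within a line, and the intervals given below are 95% intervals that cover counting error only.

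Chemokines are small secreted proteins that set up gradients along which leukocytes move. CXCL1, CXCL2, CXCL3, CXCL5, CXCL6 and CXCL8 carry a glutamate-leucine-arginine (ELR) motif and act on neutrophils through the receptor CXCR2, and some of them also through CXCR1. CCL20 draws CCR6-bearing dendritic cells and lymphocytes to mucosal surfaces, CCL28 draws IgA-secreting plasma cells through CCR10, and CXCL16 is made as a membrane-anchored protein that binds CXCR6 and is released by the proteases ADAM10 and ADAM17. In epithelium the ELR chemokines and CCL20 are known as NF-κB target genes, and their messages are known to be short-lived.

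The 4 libraries held 19105058 to 21268959 counts. Mitochondrial genome transcripts took 3.75% and 4.29% of the counts in HT29 without and with LPS, and 5.01% and 7.16% in HCT116. Leaving these transcripts out of the normalization gave CXCL1 in HT29 a log2 ratio of 2.28 in place of 2.27 and moved the other chemokine ratios as little. Of 7 epithelial markers, EPCAM, KRT8, KRT18, KRT19 and CDH1 were abundant in all 4 libraries, whereas VIL1 had 4 and 0 counts and CEACAM5 had 0 in both HCT116 libraries. The 7 leukocyte markers summed to 8.65 and 7.55 CPM in HT29 and to 2.87 and 2.32 CPM in HCT116, mostly through CD14 in HT29, with the pan-leukocyte marker PTPRC at 0 to 2 counts and CD3E and S100A12 at 0 throughout. The 6 stromal and endothelial markers summed to 7.10 and 4.89 CPM in HT29 and to 102 and 100 CPM in HCT116, with COL1A1 the largest share and COL1A2 and DCN at 0 throughout. The part of these markers in the chemokine ratios was not tested.

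The 6 ELR chemokine genes lie together on chromosome 4, within chr4:73740519-74099196 of hg38, a span of 359 kb. CXCL8, CXCL6 and CXCL1 are on the plus strand, and CXCL5, CXCL3 and CXCL2 on the minus strand. CXCL16 lies at chr17:4733533-4739928, CCL20 at chr2:227805739-227817564 and CCL28 at chr5:43376645-43412391. The promoters of these genes are shown because most of the genes had higher counts together in HT29 with LPS. By symbol, 8 of the 9 genes matched the RefSeq promoter table (GRCh38.p14), CCL28 with 2 promoters, and CXCL16 did not match. The sequences below are the 120 bases before the RefSeq start site, read 5′ to 3′ along the gene. Capitals mark the 9 letters GGAATTTCC, the core of an NF-κB site, or, in CCL20, the match to the 10-letter NF-κB consensus, which there lies on the other strand.
CXCL1: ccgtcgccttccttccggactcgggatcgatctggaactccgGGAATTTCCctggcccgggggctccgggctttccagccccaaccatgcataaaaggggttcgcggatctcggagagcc
CXCL2: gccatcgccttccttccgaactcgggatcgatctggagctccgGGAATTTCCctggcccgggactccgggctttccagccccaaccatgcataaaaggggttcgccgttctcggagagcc
CXCL3: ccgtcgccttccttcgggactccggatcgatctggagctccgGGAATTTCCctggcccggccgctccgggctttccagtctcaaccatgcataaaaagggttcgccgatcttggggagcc
CXCL5: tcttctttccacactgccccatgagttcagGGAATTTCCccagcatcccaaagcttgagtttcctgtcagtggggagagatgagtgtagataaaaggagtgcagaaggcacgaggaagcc
CXCL6: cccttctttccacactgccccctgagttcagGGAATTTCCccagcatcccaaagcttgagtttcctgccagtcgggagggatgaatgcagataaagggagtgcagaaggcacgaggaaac
CXCL8: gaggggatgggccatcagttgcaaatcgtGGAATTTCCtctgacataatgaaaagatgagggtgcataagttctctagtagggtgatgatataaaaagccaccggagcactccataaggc
CCL20: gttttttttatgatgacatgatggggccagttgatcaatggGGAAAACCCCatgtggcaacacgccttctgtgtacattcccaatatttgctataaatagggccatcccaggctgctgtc

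These windows lie at chr4:73869273-73869392 for CXCL1 (+ strand), chr4:74099196-74099315 for CXCL2 (- strand), chr4:74038690-74038809 for CXCL3 (- strand), chr4:73998678-73998797 for CXCL5 (- strand), chr4:73836558-73836677 for CXCL6 (+ strand), chr4:73740449-73740568 for CXCL8 (+ strand) and chr2:227813722-227813841 for CCL20 (+ strand). All 6 ELR chemokine promoters held GGAATTTCC, with first letters between positions -91 and -77 from the start site. Searched on both strands of the 250 bases before each start site, GGAATTTCC occurred in 145 of 35116 promoters (0.413%). The wider NF-κB consensus occurred in 9.96% of promoters. It matched in CXCL1, CXCL2, CXCL3, CXCL5 and CXCL6, where it contains the 9 letters, and in CCL20, where it begins at position -79. It did not match in CXCL8, nor in either promoter of CCL28. The AP-1 motif TGANTCA, which was present in 6.57% of promoters, occurred among these genes in CXCL8 only, at position -137. The printed windows of CXCL1 and CXCL2 were 93.4% identical, those of CXCL1 and CXCL3 90.8% and those of CXCL5 and CXCL6 90.9%, whereas the CXCL8 window was 43.6% to 48.8% identical to those of the other ELR chemokines. The unrelated pair of CCL20 and CCL28 had 43.6%. These matches describe letters in a window and not the binding of a factor.

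The messages of the same genes were rich in ATTTA, written as DNA, the pentamer of AU-rich elements that mark short-lived transcripts. ATTTA occurred 6 times in the 3′ untranslated region (UTR) of CXCL1, 10 times in CXCL2, 7 times in CXCL3, 11 times in CXCL5, 6 times in CXCL6 and 9 times in CXCL8. Per kilobase of the UTR, CXCL2 had the highest density of the 9 genes at 14, followed by CXCL3 at 10.4, CXCL1 at 7.77, CXCL8 at 7.19, CCL20 at 6.34, CXCL5 at 5.51 and CXCL6 at 5.36. The median over 19173 protein-coding genes was 1.55, and these 7 densities lay above those of 92% to 99.5% of the genes. CCL28 (2.62 per kilobase) and CXCL16 (1.03 per kilobase) did not stand out in this way, with 67.6% and 41.2% of the genes below them. The extended motif TTATTTATT was present 5 times in CXCL2, 3 times in CXCL1 and once each in CXCL3, CXCL8 and CCL28, against any occurrence in 8.60% of the genes.

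Because CXCL1, CXCL2 and CXCL3 are close relatives, the reads of these genes could in principle be confused. Stretches of 150 bases, the length of the reads, were cut every 10 bases from the reference transcript of each of the 9 genes and aligned to hg38. None of the 93 to 103 stretches of CXCL1, CXCL2 and CXCL3, and none of those of the other genes, aligned equally well to another place. The library kit is not stated to keep the strand, and CXCL5 shares 17.3% of its exon bases with a lncRNA on the opposite strand. CXCL6 shares 4.61% of its exon bases with the pseudogene PPBPP1 on the same strand, and CXCL16 shares 2.72% with MED11 and 3.44% with ZMYND15, both on the opposite strand. Reads of the partners within these stretches cannot be told apart.

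In HT29, the LPS library held more transcripts of the neutrophil chemokines and of CCL20, and for CXCL16 and CCL28 no difference was resolved beyond counting error. CXCL1 went from 97 counts without LPS to 521 with it, which is 4.88-fold higher (interval 3.92 to 6.12). CXCL8, the interleukin 8 that is the best known neutrophil attractant, had 202 and 494 counts, 2.22-fold higher (interval 1.88 to 2.63). These were the most abundant ELR chemokines in both HT29 libraries, and the ratio of CXCL1 was the larger. CXCL2 had 11 and 57 counts, 4.71-fold higher (interval 2.44 to 9.95). CXCL3 had 35 and 90 counts, 2.34-fold higher (interval 1.56 to 3.56). CXCL6, which acts on both neutrophil receptors, had 17 and 47 counts, 2.51-fold higher (interval 1.42 to 4.66). The intervals of all 5 lay above 1, and those of CXCL2, CXCL3 and CXCL6 were wide because they rest on few counts. CXCL5 had 0 counts in the control and 3 with LPS, too few for a ratio.

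Of the mucosal chemokines, CCL20 stood at 2 counts without LPS and at 57 with it in HT29, a ratio of 25.9 (interval 6.85 to 219) that rests on 2 control counts. CXCL16 had 307 and 385 counts, with a ratio of 1.14 (interval 0.978 to 1.33), and CCL28 had 34 and 54 counts, with a ratio of 1.44 (interval 0.922 to 2.29). Neither difference was detectable beyond counting error at this depth. Since bulk RNA was sequenced, more cells that express a gene and more of its RNA per cell cannot be told apart.

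To set these genes beside the rest, log2 ratios of LPS over control were taken from TMM-normalized CPM, the counts scaled to a common library size, after adding a prior count of 2. A gene was measured in a line where it averaged 1 CPM or more there, and ratios beyond 0.58, which is 1.5-fold, were counted. In HT29, 3.50% of 13201 genes lay above 0.58 and 2.70% lay below -0.58. Of the 9 chemokines, 6 lay above 0.58 and none lay below -0.58, CXCL16 (0.19) and CCL28 (0.51) lay between, and CXCL5 did not reach 1 CPM. The log2 ratios of the 6 genes were 3.83 for CCL20, 2.27 for CXCL1, 2.07 for CXCL2, 1.24 for CXCL6, 1.18 for CXCL3 and 1.14 for CXCL8. CCL20, CXCL2 and CXCL6 were below 1 CPM in the control (0.111, 0.610 and 0.943 CPM) and reached the minimum through the LPS library, so their direction was partly fixed by it. CXCL1, CXCL3 and CXCL8 were above 1 CPM in both. The median over the 8 measured chemokines was 1.21, beside -0.0076 over all genes tested. Because the chemokines were chosen with earlier results of these data known, this comparison is a description only.

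In HCT116, the same chemokines were close to the limit of detection, with the exception of CXCL16. CXCL1 had 19 counts in the control and 7 with LPS, a ratio of 0.403 (interval 0.143 to 1). CXCL8 had 15 and 4 counts, a ratio of 0.291 (interval 0.0704 to 0.915), so that its interval lay below 1. CXCL2 had 12 and 6 counts (ratio 0.546, interval 0.168 to 1.57), and CXCL3 had 15 and 16 counts (ratio 1.17, interval 0.540 to 2.53). Except for CXCL8, these differences were within counting error or at its edge. CCL20 had 2 counts in each HCT116 library, and CXCL5, CXCL6 and CCL28 had 0 in both. A count of 0 allows up to 3 counts, which is 0.133 CPM in the HCT116 control and 0.145 CPM in its LPS library. CXCL16 had 1423 and 1214 counts, with a ratio of 0.932 (interval 0.863 to 1.01). It alone reached 1 CPM, with a log2 ratio of -0.10, so only 1 of the 9 chemokines could be counted, and it did not lie beyond 0.58. Of 14337 genes measured in HCT116, 3.56% lay above 0.58 and 2.34% below -0.58. Nothing is read from a count over 1 gene.

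**Figure D1:**
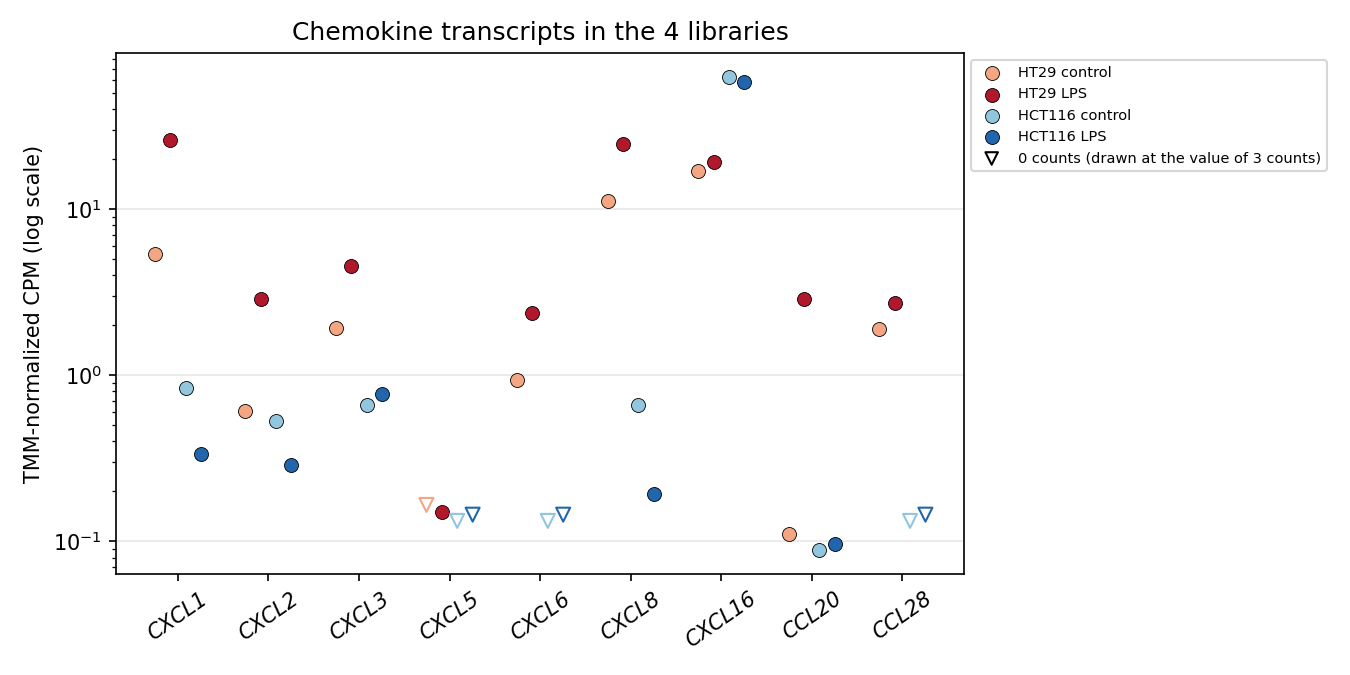
TMM-normalized CPM (log axis) of the 9 chemokine genes, 1 point per library, in HT29 (red shades) and HCT116 (blue shades), with open triangles at the value of 3 counts for libraries with 0 counts. Except for CXCL5 and CXCL16, the HT29 LPS library holds the highest point of each gene, whereas CXCL16 is highest in the HCT116 control at 62.9 CPM.

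**Figure D2:**
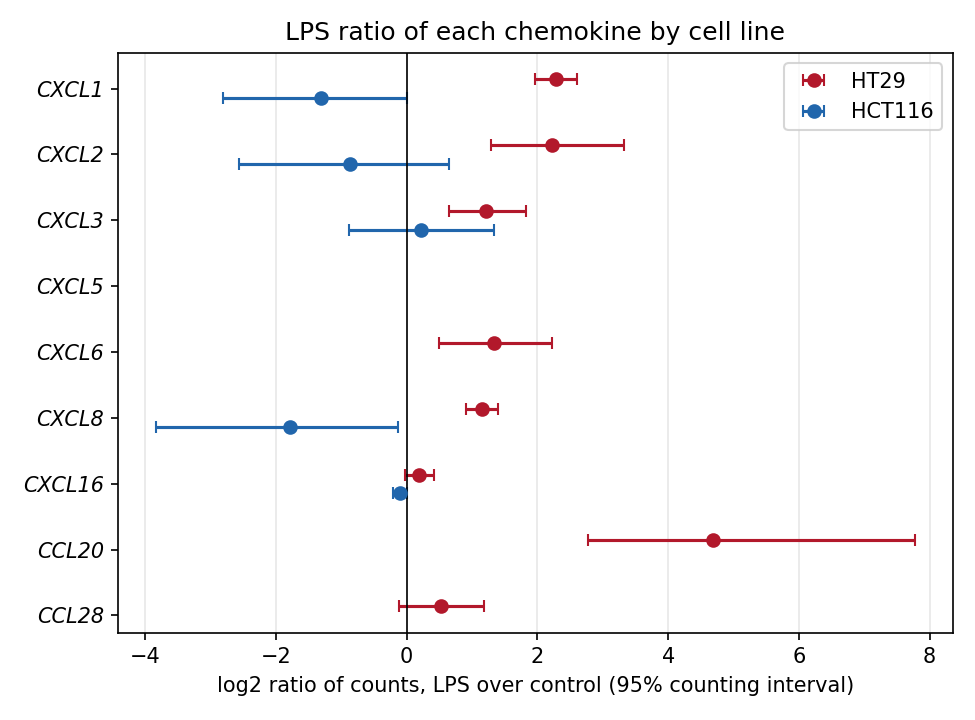
Log2 ratio of normalized counts, LPS over control, without a prior count, in HT29 (red) and HCT116 (blue), with bars for the 95% exact counting interval. The HT29 intervals of 6 genes lie above 0, those of CXCL16 and CCL28 include it, and genes with at most 3 counts in both libraries of a line have no point for it.

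The point ratios of LPS to control lay above 1 in HT29 and below 1 in HCT116 for CXCL1, CXCL2, CXCL8 and CXCL16. In HCT116 only the CXCL8 interval lay below 1, so opposite directions are not established for the others. The difference between the lines was itself computed from the 4 counts. For CXCL1 the log2 ratio was higher in HT29 than in HCT116 by 3.59 (interval 2.23 to 5.12). For CXCL2 the difference was 3.05 (interval 1.21 to 5.06), for CXCL8 2.93 (interval 1.25 to 4.99) and for CXCL3 0.99 (interval -0.28 to 2.27). For CCL20 it was 4.33 (interval 0.021 to 8.79), which rests on 2 counts in 3 of the libraries. For CXCL16 it was 0.29 (interval 0.041 to 0.54). These intervals exclude 0 for 5 genes but hold no variation between cultures, and with 1 library per condition the difference could not be tested. With a prior count of 2, 4 of the 6 chemokines that averaged 1 CPM or more over the 4 libraries differed by more than 0.58 with HT29 the higher, as did 7.34% of 14516 genes, and 7.46% differed as much the other way. These 4, CXCL1, CXCL2, CXCL3 and CXCL8, were below 1 CPM in both HCT116 libraries and reached the minimum through HT29, and CXCL2 through its LPS library, so the count was partly fixed by the minimum and nothing is read from it.

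An effect of LPS shared by the lines was tested with edgeR's quasi-likelihood test, with the cell line as a block and 1 residual degree of freedom. It takes the lines as replicates of each other. It called 0 of 6 tested chemokines at an adjusted p under 0.05, where 0.124% of 14516 genes were called higher with LPS and 0.0964% lower. The log2 fold change was 1.56 for CXCL1, with a standard error of 0.42 and an adjusted p of 0.21 from edgeR, and 0.75 for CXCL8, with a standard error of 0.33 and an adjusted p of 0.60. These 2 genes had an unadjusted p under 0.05, as did 7.58% of all genes. DESeq2 gave no adjusted p for any of the 6 genes, and none had an unadjusted p under 0.05. CXCL1 was called by edgeR with a minimum of 5 CPM and with no filter, although its HCT116 counts went the other way.

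The lines differed in their chemokine transcripts before any LPS was added. In the control libraries, CXCL8 was 16.9-fold higher in HT29 than in HCT116 (interval 10 to 30.7), CXCL1 was 6.40-fold higher (interval 3.89 to 11.1) and CXCL3 was 2.93-fold higher (interval 1.56 to 5.77). CXCL2, with 11 and 12 counts, did not differ beyond counting error (ratio 1.15, interval 0.460 to 2.85). Counting 0 in HCT116 as 3, CCL28 was 14.2-fold and CXCL6 7.11-fold higher in HT29. These 2 values leave out the counting error of the 34 and 17 HT29 counts and are no lower limits. CXCL16 went the other way and was 3.70-fold higher in the HCT116 control (interval 3.26 to 4.19). With LPS the gap widened to 129-fold for CXCL8 (interval 50 to 474) and to 77.6-fold for CXCL1 (interval 37.4 to 194). CXCL2 was then 9.90-fold (interval 4.28 to 28.1) and CCL20 29.7-fold (interval 7.86 to 251) higher in HT29, the latter on 2 HCT116 counts, and CXCL16 was 3.02-fold higher in HCT116 (interval 2.69 to 3.40).

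In edgeR's quasi-likelihood test of the line, with LPS as a block and the control and LPS libraries of a line standing in for replicates, 5 of 6 tested chemokines were higher in HT29 and 1 was lower, where 38.0% of 14516 genes were called higher in HT29 and 38.6% lower. All 5 were below 1 CPM in both HCT116 libraries and reached the minimum of 1 CPM over the 4 libraries through HT29 alone. Their direction was thus fixed by that minimum. The count and the p-values of these 5 genes are a description and no evidence of a difference. The log2 fold change of HT29 over HCT116 was 5.25 for CXCL8 (standard error 0.38, adjusted p = 9.1e-11) and 4.41 for CXCL1 (standard error 0.46, adjusted p = 2.8e-08). It was 2.08 for CXCL3 (adjusted p = 0.0004), 1.83 for CXCL2 (adjusted p = 0.018) and -1.74 for CXCL16 (standard error 0.11, adjusted p = 1.1e-11), all from edgeR. CCL28 was called as higher with 0 counts in both HCT116 libraries (adjusted p = 1e-06), so its fitted size is not given. CXCL5, CXCL6 and CCL20 did not reach a mean of 1 CPM over the 4 libraries. DESeq2 called neither CXCL2 (adjusted p = 0.17, where edgeR's alternatives gave 0.011 to 0.041) nor CCL28 (adjusted p = 0.062, where edgeR's alternatives gave 1.6e-12 to 1.5e-05).

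Per length of exon, as TPM, the length-scaled share of all transcripts, CXCL16 had the highest level of the 9 genes in the HT29 control at 20.3 (interval 18.1 to 22.8). CXCL8 at 14.4 (interval 12.5 to 16.6) and CXCL1 at 13.2 (interval 10.7 to 16.1) followed and did not differ from each other beyond counting error. CXCL3 at 2.92, CXCL6 at 1.54, CXCL2 at 1.46 and CCL28 at 1.39 came next, each with an interval that overlapped that of its neighbour in this order, and CCL20 was at 0.232. With LPS the order in HT29 changed. CXCL1 led at 64.8 TPM (interval 59.3 to 70.6), before CXCL8 at 32.3 (interval 29.5 to 35.3) and CXCL16 at 23.3 (interval 21.1 to 25.8), and none of these intervals overlapped. CXCL2 at 6.90, CXCL3 at 6.87 and CCL20 at 6.05 had levels that did not differ beyond counting error, and CXCL6 was at 3.90, CCL28 at 2.02 and CXCL5 at 0.208. In HCT116, CXCL16 stood at 82.9 TPM without and 71.4 with LPS, and no other gene of the group exceeded 2.27 TPM.

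The 6 ELR chemokines, which share the neutrophil receptor CXCR2, were also summed. Their counts came to 362 in the HT29 control and 1212 with LPS, 3.04-fold higher (interval 2.70 to 3.43), and to 61 and 33 in HCT116, a ratio of 0.591 (interval 0.375 to 0.918). On the TPM scale the HT29 sums were 33.6 without and 115 with LPS, against 5.71 and 2.99 in HCT116. The makeup of the sum differed between the HT29 libraries. CXCL1 took 26.8% of the summed counts in the control (exact binomial interval 22.3% to 31.7%) and 43.0% with LPS (interval 40.2% to 45.8%). CXCL8 took 55.8% (interval 50.5% to 61.0%) and 40.8% (interval 38.0% to 43.6%). Per length, CXCL1 went from 39.3% to 56.3% of the summed TPM and CXCL8 from 43.1% to 28.1%. CXCL2, CXCL3 and CXCL6 had shares of the counts whose intervals overlapped between the HT29 libraries.

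**Figure D3:**
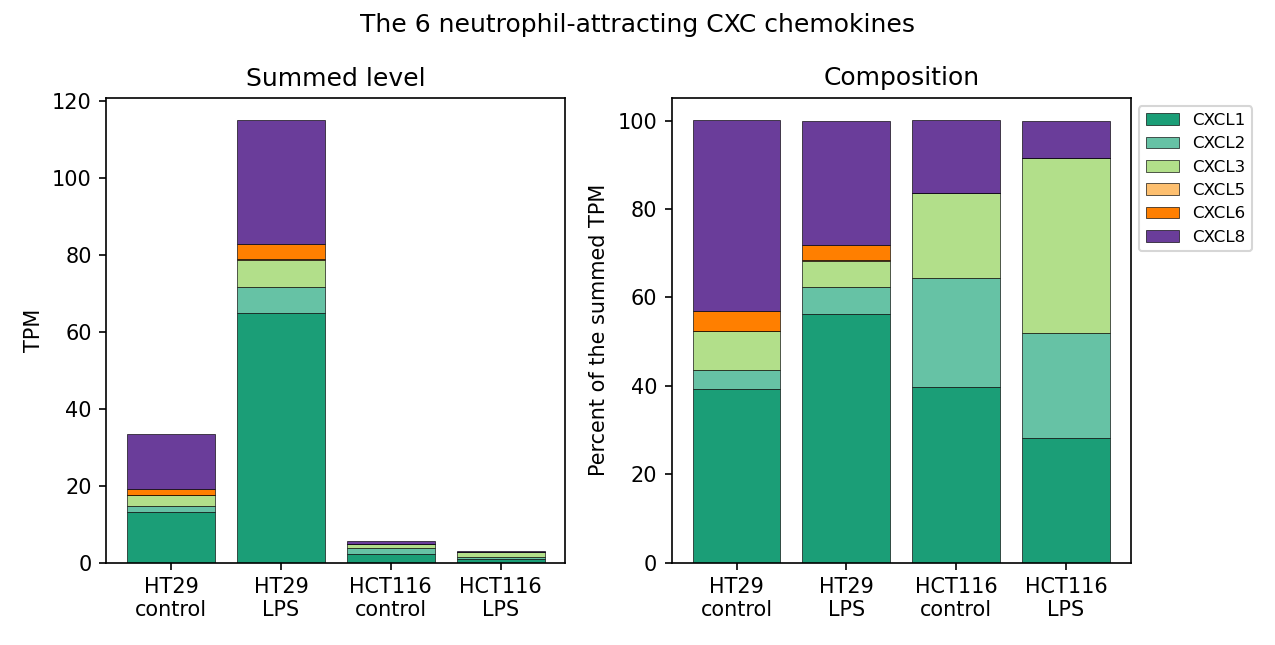
Stacked bars of the 6 ELR chemokines in the 4 libraries, as TPM (left) and as percent of their summed TPM (right). The sum is 115 TPM in HT29 with LPS and at most 33.6 TPM in the other libraries, and CXCL1 takes 56.3% of it in HT29 with LPS.

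The genes beside the cluster that averaged 1 CPM or more did not show differences of this size in HT29. Within 500 kb of the cluster lie 13 other protein-coding genes, of which 5 averaged 1 CPM or more in HT29. Their log2 ratios ran from -0.17 to 0.16, and none lay beyond 0.58 in either line. EREG and AREG, which encode ligands of the EGF receptor, had HT29 counts of 2649 and 3167, and of 1262 and 1408, with log2 ratios of 0.12 and 0.019. MTHFD2L, a mitochondrial folate enzyme whose gene is next to CXCL2, had 267 and 261 counts (log2 ratio -0.17), RASSF6 had 261 and 298 (log2 ratio 0.052) and ANKRD17 had 2435 and 2987 (log2 ratio 0.16). PF4, PF4V1 and PPBP, chemokines of platelets that lie between CXCL6 and CXCL5, had 0 counts in all 4 libraries, and ALB, AFP and AFM, of the albumin family, had at most 1 in HT29. EPGN, a further EGF receptor ligand, stayed below 1 CPM, at 0 counts without and 8 with LPS in HT29. The minimum thus left EPGN out, whereas CXCL2 and CXCL6 reached it through the LPS library, so the contrast rests partly on the minimum.

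**Figure D4:**
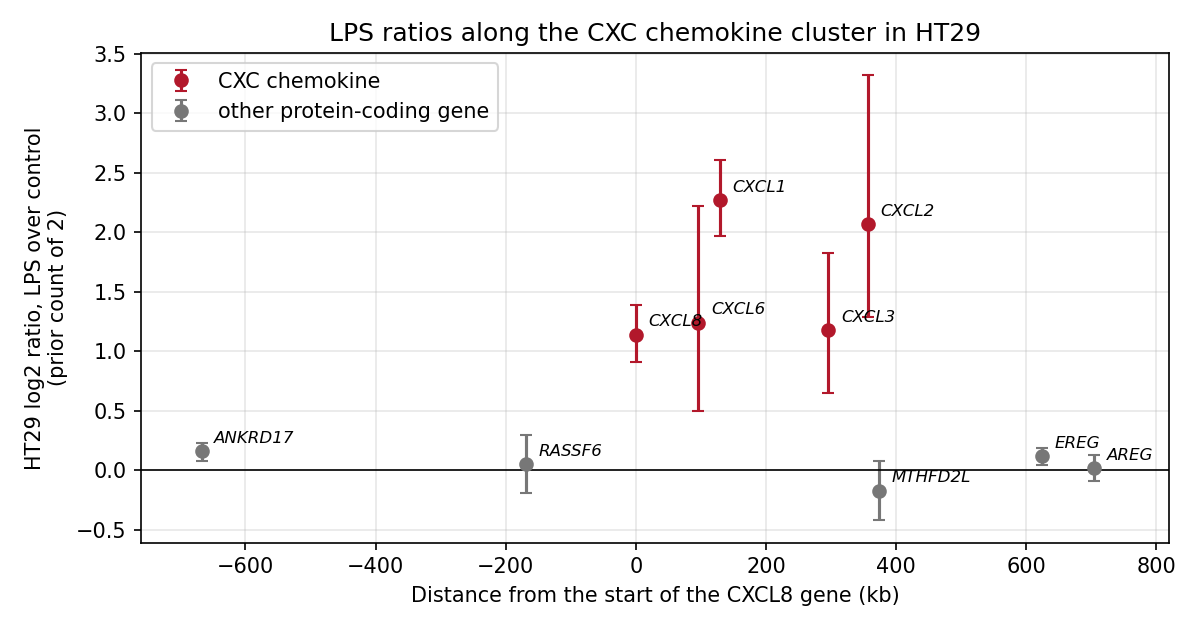
Log2 ratio of LPS over control in HT29 against the distance of each gene's lower coordinate from that of CXCL8 in kb, for the ELR chemokines (red) and the other protein-coding genes (grey) averaging 1 CPM or more, with bars for the 95% counting interval of the ratio without the prior count. The 5 chemokines lie between 1.14 and 2.27, and the 5 other genes between -0.17 and 0.16. CXCL2 and CXCL6 reached 1 CPM through the LPS library.

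Among the 35 other chemokine genes, 23 had no count in any library, and CX3CL1, a membrane-anchored attractant, was the only one to average 1 CPM or more in either line. Its HT29 counts were 28 without and 42 with LPS, a log2 ratio of 0.42 with an interval of -0.28 to 1.19, and HCT116 gave 2 and 0. The interferon-induced chemokines CXCL10 and CXCL11 had 4 and 7, and 2 and 9 counts in HT29, and 0 in HCT116. CXCL17, a mucosal chemokine, had 7 and 14 counts in HT29, and CCL22 had 0 and 7. CCL2 and CCL5, which attract monocytes and T cells, had 0 counts throughout.

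The receptors of these chemokines were barely expressed. CXCR2 had 0 counts in both HT29 libraries and 14 and 12 in HCT116, CXCR1 had 1 and 0 in HT29 against 0 and 4 in HCT116, and CXCR6 had 7 and 9 in HT29 against 2 in each HCT116 library. CCR10 had 0 counts in HT29 and 24 and 14 in HCT116. CCR3, another receptor of CCL28, counted 10 and 6 in HT29 against 28 and 27 in HCT116, where it reached 1 CPM with a log2 ratio of 0.07 (interval -0.74 to 0.89). CCR6 and the decoy receptor ACKR1 had 0 counts in all 4 libraries. The sheddases of CXCL16 were present in all libraries. ADAM10 counted 4584 and 5166 in HT29 against 3257 and 2771 in HCT116, and ADAM17 917 and 1078 against 1052 and 1034. ADAM10 was called higher in HT29 (log2 fold change 0.89, adjusted p = 1.9e-10 from edgeR), as were 38.0% of all genes. The test of the line takes the control and LPS libraries as replicates and does not measure the spread between cultures. Neither sheddase was called for LPS by edgeR or DESeq2, nor had an unadjusted p under 0.05 in either.

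Of the 12 receptors and adaptors through which bacterial products and cytokines induce chemokines, 0 of 9 tested were called for LPS by edgeR and 1, MYD88, had an unadjusted p under 0.05. DESeq2 called MYD88, and gave no adjusted p for 6 of the 9. Over all 14516 genes it called 81 for LPS and gave no adjusted p for 9569. In edgeR's test of the line, 4 of the 9 were higher in HT29 and 4 lower, beside the 38.0% and 38.6% of all genes given above. TLR4 and CD14 were below 1 CPM in both HCT116 libraries, and NOD2 and IL1R1 in both HT29 libraries. The minimum thus fixed the direction of these genes, and nothing is read from the counts of calls. TLR4, the signalling receptor of LPS, had 313 and 362 counts in HT29 and 0 in both HCT116 libraries. LY96, which encodes its partner MD-2, had 0 counts in HT29 and 0 and 1 in HCT116. CD14, which passes LPS on to TLR4, counted 140 and 137 in HT29 against 12 and 9 in HCT116. NOD2, a cytosolic sensor of muramyl dipeptide, had 0 counts in HT29 and 215 and 203 in HCT116. IL1R1, the receptor of interleukin 1, counted 17 and 13 in HT29 against 259 and 255 in HCT116. The adaptor MYD88 had the highest log2 ratio of the list in both lines, 0.38 in HT29 (interval 0.26 to 0.51) and 0.31 in HCT116 (interval 0.18 to 0.43, adjusted p = 0.12 from edgeR over both lines), and IL17RC in HT29 (-0.21) and NOD1 in HCT116 (-0.093) had the lowest. The part of these receptors in the chemokine ratios was not tested.

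Of 11 transcription factors and NF-κB feedback genes, 1 lay above 0.58 in HT29 and 0 lay beyond it in HCT116. Over all genes, 3.50% lay above 0.58 in HT29, and 3.56% lay above 0.58 and 2.34% below -0.58 in HCT116. The gene above 0.58 was TNFAIP3, an NF-κB-induced inhibitor of the pathway. It counted 48 without and 120 with LPS in HT29, a log2 ratio of 1.15. In HCT116 its counts were 90 and 66, a log2 ratio of -0.31 that was the lowest of the list there. The lowest in HT29 was CEBPB with a log2 ratio of -0.20, and the highest in HCT116 was RELA, the p65 subunit of NF-κB, with 0.17 (2781 and 2865 counts). NFKBIZ, a nuclear cofactor of NF-κB, counted 831 and 1134 in HT29 against 145 in each HCT116 library. NFKBIA, another NF-κB feedback gene, went the other way in HT29 at 732 and 713 counts (log2 ratio -0.18, interval -0.33 to -0.026). The median log2 ratio of the 11 genes in HT29 was 0.043. In edgeR's test of LPS 0 of the 11 were called, and CEBPB alone had an unadjusted p under 0.05. DESeq2 called 0, with 0 at an unadjusted p under 0.05 and no adjusted p for 5. Of 8 regulators of mRNA turnover, 0 lay beyond 0.58 in either line. ZC3H12A, the ribonuclease Regnase-1, had the highest log2 ratio in HT29 at 0.46 (interval 0.31 to 0.61), with 624 and 946 counts, and -0.044 in HCT116. ZFP36, or tristetraprolin, which binds AU-rich elements, had the highest in HCT116 at 0.24 (interval 0.12 to 0.35), with 1238 and 1335 counts, and 0.12 in HT29. The lowest were ELAVL1 in HT29 (-0.088) and RC3H1 in HCT116 (-0.11). For LPS over both lines edgeR called 0 of these 8, with 2 at an unadjusted p under 0.05, beside 7.58% of all genes. DESeq2 called 1, KHSRP (log2 ratios 0.13 and 0.17), where it called 81 of 14516 genes and gave no adjusted p for 9569.

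The genes whose profile over the 4 libraries was most like that of a chemokine were found by the Euclidean distance of centred log2 CPM among the 14516 genes averaging 1 CPM or more. With 4 libraries this measure is set mostly by the difference between the lines. For CXCL1 the nearest gene was CXCL8 (distance 1.23), followed by TTC6 (1.28), APCDD1L (1.34), SLC2A10 (1.35) and SLC26A9 (1.36), none of which lay close. CXCL8 had WFDC2 (0.66), LINC02381 (0.67), LPAR6 (0.73), OAS1 (0.73) and DAPP1 (0.74) as its nearest genes. CXCL16 had closer companions in TMED8 (0.013), ATP2B4 (0.034), ZC3H12B (0.042), ARHGAP10 (0.053) and CDK5RAP3 (0.055). TMED8, for example, counted 263 and 332 in HT29 against 1224 and 1035 in HCT116. CCL28 had FNBP1P1 (0.044), C11orf21 (0.13), NHLRC1 (0.15), LINC01342 (0.15) and ZNF717 (0.18), each with 0 to 2 counts in both HCT116 libraries.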

How the data were processed

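HT29 and HCT116 cells, with and without LPS, gave total RNA for 150 bp paired-end sequencing, 1 library per condition. The authors deposited raw counts per gene, with each gene's exon length, in 1 table. Their alignment used HISAT2 2.1.0 and hg38, and featureCounts 2.0.1 did the counting on GENCODE genes. Trimming tools listed in the submitters' notes are cutadapt 1.9 and Trimmomatic 0.39. No source used here gives the strand setting or the handling of multiply mapped reads. Of 61544 genes, 61399 were paired with a GENCODE 44 symbol by their identifier, and 0 columns belonged to no sample. Totals ran from 19105058 to 21268959 counts, which limits precision for the many chemokines with few counts.

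Counts were normalized by TMM in R 4.3.3 with edgeR 4.0.16. Log2 ratios used a prior count of 2 and a minimum mean of 1 CPM. Ratios of counts carry exact Clopper-Pearson intervals, differences of ratios exact conditional intervals of the odds ratio, and TPM exact Poisson intervals (scipy 1.17.1), all for counting error only. LPS and the cell line were tested in edgeR (quasi-likelihood F test, Benjamini-Hochberg adjustment over all genes tested), each with the other as a block. The standard errors given with edgeR were computed as the absolute log2 fold change over the square root of the F statistic. The 1 residual degree of freedom holds the difference of the LPS ratios between the lines, which edgeR moderates with the values of all genes. The p-values therefore do not measure the spread between cultures. Alternatives covered the test (DESeq2 1.42.0, no block), the scaling (DESeq2 size factors, library size, TMM per line, mitochondrial transcripts left out), the prior count (0.5 or 5), the filter (none, or 5 CPM), the size threshold (1) and thinned counts. Transcript stretches were aligned with minimap2 2.31. The chemokines and the gene lists were chosen with earlier results of these data known. Genes were named as every chemokine of the group, the receptors, the highest and the lowest measured gene of each list per line, the protein-coding neighbours of the cluster and the 5 nearest profiles, and others named within a list were chosen after their values were seen.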

Additional observations from a re-analysis of the deposited data

Results flagged for a closer look

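For 4 chemokines the LPS library lay above the control in HT29 and below it in HCT116. The log2 ratio in HT29 exceeded that in HCT116 by 3.59 for CXCL1, 3.05 for CXCL2, 2.93 for CXCL8 and 0.29 for CXCL16. With 1 library per condition the difference was not tested, and the intervals given with the results cover counting error only. In HCT116 the first 3 rest on 19 counts or fewer per library, and the interval of the CXCL16 ratio included 1 in each line.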

How the results depend on the processing

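The 6 chemokines above 0.58 in HT29 came to 2 with a minimum of 5 CPM, where only CXCL1, CXCL8 and CXCL16 were measured, and the count stayed within 1.5 times under the other alternatives. In HCT116, 3 lay below the threshold with no filter on low counts, each on few counts. The shared test of LPS called 1 chemokine, CXCL1, with no filter and with a minimum of 5 CPM in place of 0. The CXCL8 log2 fold change of that test was -0.17 by DESeq2, and that of CXCL16 was -0.035 with no block for the cell line. The cause was not tested. Of the chemokines higher in HT29 than in HCT116, 5 became 2 with a minimum of 5 CPM, which leaves 3 to test, and 3 by DESeq2. Under all alternatives run, the HT29 log2 ratio stayed between 2.24 and 2.28 for CXCL1, between 1.13 and 1.18 for CXCL8 and between 3.13 and 4.42 for CCL20. No paired analysis was possible because each condition has 1 library and the groups so share fewer than 2 replicate numbers. The libraries of a line were paired only through the block for the cell line in the test of LPS, and leaving out a library would leave no residual degrees of freedom. Depth limits every statement on chemokines in HCT116 other than CXCL16.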

Other observations

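Cytokines and acute phase products known to accompany chemokines in inflamed epithelium were mostly found at few counts. TNF and SAA2 had 0 counts in all 4 libraries and IL6 had 0 in HT29 and 0 and 2 in HCT116. LCN2, an iron-sequestering protein of epithelium and neutrophils, counted 1859 without and 2942 with LPS in HT29, a log2 ratio of 0.52 (interval 0.44 to 0.61). In HCT116 it counted 28 and 24, a log2 ratio of -0.087 (interval -0.94 to 0.75). SAA1, an acute phase protein, counted 0 and 13 in HT29 against 4 and 2 in HCT116. CSF1, the macrophage growth factor, counted 13 and 16 in HT29 against 192 and 193 in HCT116, and CSF2, CSF3, IL1A and IL1B had at most 10 counts in any library. Of the 10 genes, 2 could be tested for LPS, and edgeR's quasi-likelihood test called 0 of them, with 1 at an unadjusted p under 0.05 (LCN2, adjusted p = 0.091). DESeq2 called 0 of the 2 and gave 0 at an unadjusted p under 0.05.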
